A study of Mus musculus with 20 samples.

Results

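The genes described are the matrix metalloproteinases (Mmp), the tissue inhibitors of metalloproteinases (Timp) and the secreted ADAMTS proteases (Adamts), measured in mouse visceral adipose tissue (VAT). They were chosen by name among the probes of the array, and a gene was kept if 6 or more of the 20 arrays read a probe of it well above background. This kept 37 of the 46 genes so named, with 16 of 23 Mmp, 4 of 4 Timp and 17 of 19 Adamts genes, out of 25619 gene names tested in all. The kept genes had 69 tested probes, and 30 of the 37 genes were well above background on all 20 arrays. The 9 genes left out were Adamts3, Adamts13, Mmp1a, Mmp1b, Mmp10, Mmp16, Mmp20, Mmp21 and Mmp25, whose probes were well above background on 3 arrays at most.

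Each array carried RNA of the epididymal VAT of 1 male C57bl/6J mouse, the third generation (F3) of a lineage bred under an oil supplement. Ref mice (n = 6, labelled STD Cont) and HFoleic mice (n = 6, labelled HFD Cont) came from a lineage given high-oleic sunflower oil, and HFepa mice (n = 8, labelled HFD O3) from a lineage given fish oil rich in the omega 3 fatty acid EPA. HFoleic and HFepa mice were then fed an obesogenic diet rich in fat and sucrose, whereas Ref mice received a low-fat diet. The ages of the mice are not in the labels, and no source used here says which mice were littermates. The paper states that HFoleic and HFepa mice were matched for body weight, and the labels do not give the matches. HFoleic vs. Ref therefore compares diets within the oleic lineage, HFepa vs. HFoleic compares lineages under the obesogenic diet, and in HFepa vs. Ref the diet and the lineage cannot be told apart.

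Mmp proteases are zinc enzymes that cleave collagens, elastin, gelatin and other proteins outside the cell, and most are secreted as inactive precursors. Timp proteins bind their active sites and block them, with Timp3 also inhibiting several ADAM and ADAMTS enzymes. ADAMTS enzymes process procollagen or cleave large proteoglycans of the matrix such as versican and aggrecan. In adipose tissue these enzymes and inhibitors act in the matrix remodelling that goes with growth of the fat depot.

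On the array 10 Mmp genes lie side by side on chromosome 9, where their probes spanned positions 7282762 to 7699535 on genome build mm9, and 6 of the 10 were kept. The promoters of this cluster are shown because the letters TGANTCA, the binding motif of the AP-1 transcription factors, stood close to the start of 8 of the 10 genes. The motif was searched on both strands, which give the same 7 letters, in RefSeq windows of 250 bases before to 50 bases after each annotated start. Windows were found for 32 of the 46 genes, and none of the 22 other genes held the motif. Of all 32851 windows in the table, 7.81% held it, and of 27025 genes 8.97% held it in at least 1 window. The 120 bases before the start are printed 5′ to 3′ on the plus strand of GRCm38.p6, with the motif in capitals. Mmp13 (chr9:7272394-7272513), Mmp12 (chr9:7347254-7347373, the second of its annotated starts) and Mmp3 (chr9:7445702-7445821) are the genes of the cluster that rose in HFoleic vs. Ref. Mmp7 (chr9:7691970-7692089, the first of its annotated starts) held the motif without being called in any comparison, and Mmp8 (chr9:7558309-7558428) did not hold it. The other genes with the motif, Mmp1a, Mmp1b, Mmp10 and Mmp20, were not kept. No window was found for Mmp2, Mmp19, Adamts4, Adamts7 and Adamts16, which were also called in HFoleic vs. Ref.
Mmp13: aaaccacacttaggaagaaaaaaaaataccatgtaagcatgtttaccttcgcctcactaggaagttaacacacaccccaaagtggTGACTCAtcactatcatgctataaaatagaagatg
Mmp12: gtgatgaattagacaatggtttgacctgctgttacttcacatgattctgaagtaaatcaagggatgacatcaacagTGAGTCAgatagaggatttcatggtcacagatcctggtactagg
Mmp3: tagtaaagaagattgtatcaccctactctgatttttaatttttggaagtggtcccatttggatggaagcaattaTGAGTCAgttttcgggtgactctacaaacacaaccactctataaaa
Mmp7: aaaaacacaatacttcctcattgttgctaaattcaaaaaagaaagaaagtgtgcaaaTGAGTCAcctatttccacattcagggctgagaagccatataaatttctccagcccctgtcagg
Mmp8: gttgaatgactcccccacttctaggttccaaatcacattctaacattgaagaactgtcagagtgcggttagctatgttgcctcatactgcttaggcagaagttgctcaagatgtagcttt
The motif began 35 bases before the start in Mmp13, 44 in Mmp12, 46 in Mmp3 and 63 in Mmp7. A match of letters is a description of the window and was not tested as a binding site. Of the genes of 7 AP-1 subunits, 1 was called in HFoleic vs. Ref, where 31.8% of all genes were. It was Fosl2, at a log2 fold change of −0.29 (adjusted p = 0.0371), and Fos was at 0.81 (adjusted p = 0.0964).

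**Figure D1:**
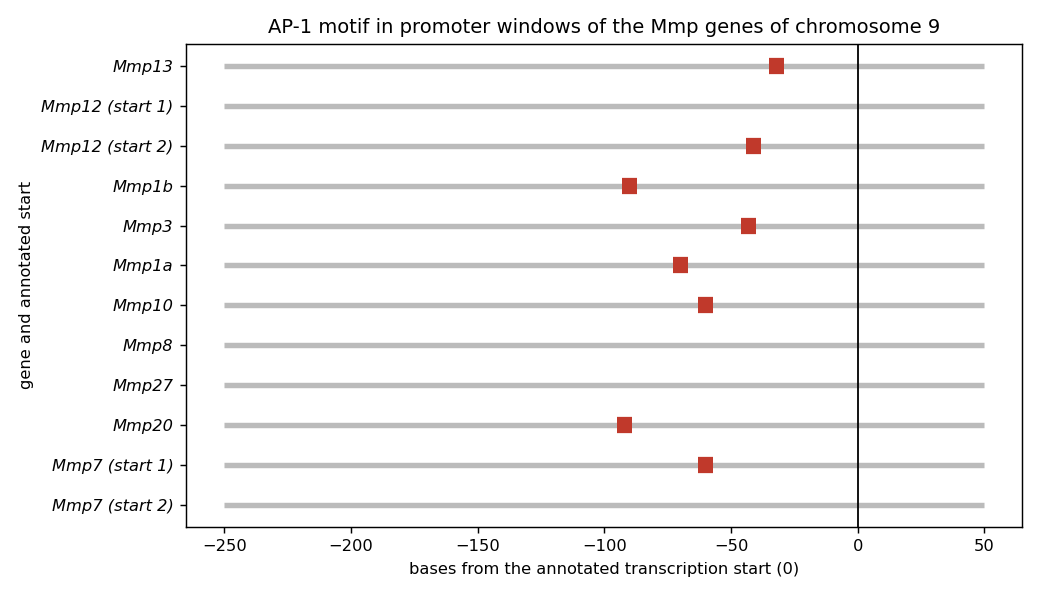
Position of the AP-1 motif (red) in RefSeq promoter windows (grey) of the 10 Mmp genes of chromosome 9, in their order along the chromosome, with the distance in bases from the annotated start on the x axis. The motif lies within the 100 bases before a start in 8 genes, in 1 of both annotated starts of Mmp12 and Mmp7, and is absent from the windows of Mmp8 and Mmp27.

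Levels are log2 intensities after quantile normalization, so that a difference of 1 is a doubling of signal. A gene is given by its brightest tested probe, and levels of different probes cannot be set against each other. Every adjusted p is from the moderated test of limma, corrected after Benjamini–Hochberg across 39391 tested probes, and a gene was called where it was below 0.05. The median signal of an array was between 83 and 114 in linear units, 66.1% to 71.9% of its spots were well above background, and no spot was saturated. The tissue label was checked on adipocyte markers, whose mean log2 intensity was between 16.4 and 17.3 in every mouse. In whole tissue, fewer cells of a type and less RNA per cell cannot be told apart.

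In the HFoleic group, the macrophage elastase Mmp12 and the inhibitor Timp1 rose most, together with Mmp19, Mmp3, Mmp13 and Mmp2, while Timp3, Timp4, Adamts1 and Adamts4 fell. In HFoleic vs. Ref, 14 of the 37 genes were called (37.8%), against 31.8% of all genes tested. Of these, 10 were higher (27%, against 15.2% of all genes) and 4 were lower (10.8%, against 16.7% of all genes). The share called was thus near that of all genes, and the median log2 fold change was 0.14 for the 37 genes and −0.04 for all genes. Among Mmp genes 6 of 16 were higher and 0 lower (7 at an unadjusted p below 0.05, all higher), with a median log2 fold change of 0.26. The Timp genes were split, with 2 higher and 2 lower, and of 17 Adamts genes 2 were higher and 2 lower, with a median of 0.0034. These directions were the same with the processed signal, with median centring and with normexp background correction, where 11 or 12 genes were higher and 4 lower. The groups did not overlap for 7 of the 37 genes, all higher in HFoleic (Mmp12, Mmp13, Mmp19, Mmp2, Mmp3, Timp1 and Adamts7), which is 18.9% against 14% of all genes in either direction.

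**Figure D2:**
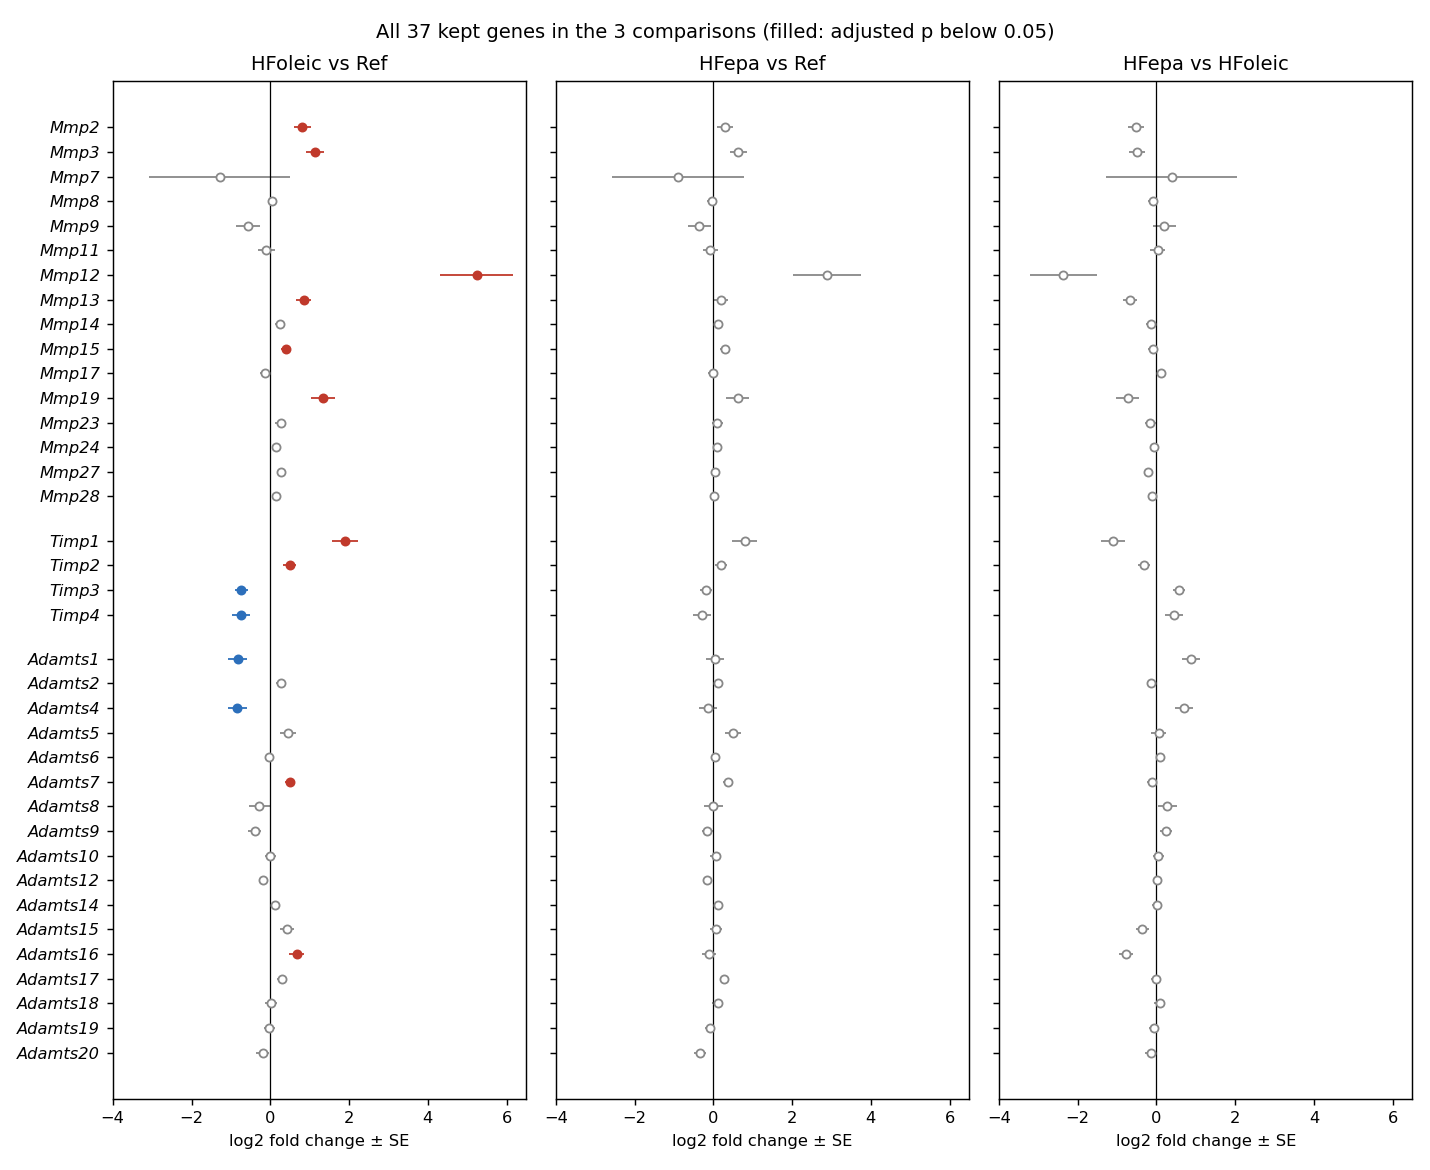
Log2 fold change with its standard error (SE, x axis) of each of the 37 genes in the 3 comparisons, with Mmp, Timp and Adamts genes in blocks from top to bottom. Filled points, 10 red and 4 blue, passed the adjusted p of 0.05, and all of them belong to HFoleic vs. Ref.

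Mmp12 encodes the elastase of macrophages, which degrades elastin. Its log2 intensity in Ref mice was 9.22 in mouse 2, 6.77 in mouse 3, 6.31 in mouse 4, 6.05 in mouse 5, 6.51 in mouse 6 and 7.33 in mouse 7. HFoleic mice were at 11.06, 12.95, 12.48, 13.02, 11.51 and 12.61 (mice 1, 4, 5, 6, 7 and 8). All HFoleic mice thus lay above all Ref mice, with Ref mouse 2 apart from the other Ref mice. The mean rose from 7.03 ± 1.16 (SD, n = 6) to 12.27 ± 0.80 (SD, n = 6), a log2 fold change of 5.24 (SE 0.92, adjusted p = 0.000677). HFepa mice were at 13.76, 9.47, 6.35, 9.29, 7.66, 12.49, 10.70 and 9.56 (mice 1 to 8). They overlapped both other groups, with mouse 1 above every HFoleic mouse and mouse 3 below 4 of the 6 Ref mice. The probe lies at chromosome 9, 7358559 to 7358618 (mm9), and 2 dimmer probes of Mmp12 were called as well, with log2 fold changes of 4.48 and 4.21.

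Mmp3 and Mmp13 lie in the same cluster. Mmp3 encodes stromelysin 1, which cleaves many matrix proteins and activates other Mmp precursors. Mmp3 (chromosome 9, 7455751 to 7455810) had a lowest, median and highest log2 intensity of 6.37, 6.97 and 7.37 in Ref, 7.50, 8.03 and 8.51 in HFoleic, and 6.80, 7.57 and 8.31 in HFepa. It was higher in all HFoleic than in all Ref mice, with a log2 fold change of 1.13 (SE 0.22, adjusted p = 0.0013), and HFepa lay between and overlapped both. Mmp13, a collagenase of fibrillar collagen (chromosome 9, 7282762 to 7282821), was a dim probe, at 5.29, 5.62 and 5.96 in Ref, 5.996, 6.52 and 6.84 in HFoleic and 5.495, 5.64 and 6.71 in HFepa. It was well above background in 4 of 6 Ref, 6 of 6 HFoleic and 7 of 8 HFepa mice. The lowest HFoleic mouse was only just above the highest Ref mouse, and the log2 fold change was 0.86 (SE 0.19, adjusted p = 0.00254). Its size depended on the processing, at 0.62 to 1.77 over the 34 alternatives described at the end. Of the other kept genes of the cluster, Mmp8, the neutrophil collagenase, differed by 0.05 and Mmp27 by 0.27 (adjusted p = 0.78 and 0.057), and Mmp7 is described last.

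Mmp19 (chromosome 10, 128237761 to 128237820), an Mmp of basement membrane proteins, was at 11.60, 11.76 and 12.02 in Ref, 12.32, 13.27 and 13.53 in HFoleic and 11.69, 12.09 and 13.99 in HFepa. The Ref and HFoleic groups did not overlap, and the log2 fold change was 1.34 (SE 0.31, adjusted p = 0.00325), with a dimmer probe at 0.92. Mmp2, gelatinase A, was at 8.78, 8.89 and 9.07 in Ref and at 9.12, 9.76 and 10.22 in HFoleic, with a log2 fold change of 0.81 (adjusted p = 0.00818). The other gelatinase, Mmp9, was not called, with a log2 fold change of −0.56 (95% confidence interval −1.21 to 0.09). Of 4 membrane-type Mmp genes, 1 was called, where 31.8% of all genes were. It was Mmp15 at 0.39 (adjusted p = 0.0159), and Mmp14, which activates the Mmp2 precursor, was not called.

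The 4 inhibitor genes passed the test in HFoleic vs. Ref, in opposite directions, where 31.8% of all genes passed it. Timp1 (chromosome X, 20451675 to 20451733) was at 8.55, 8.54, 8.26, 8.19, 8.15 and 8.43 in Ref mice 2 to 7, and at 9.19, 11.25, 10.49, 10.59, 9.67 and 10.25 in HFoleic mice 1, 4, 5, 6, 7 and 8. The groups did not overlap, and the log2 fold change was 1.89 (SE 0.33, adjusted p = 0.000644), which is 3.70-fold. Timp2 (chromosome 11, 118163146 to 118163205), which also takes part in the activation of the Mmp2 precursor, had a lowest, median and highest value of 15.24, 15.38 and 15.75 in Ref and 15.59, 15.92 and 16.21 in HFoleic. These groups overlapped, and the log2 fold change was 0.50 (SE 0.17, adjusted p = 0.0267), with a dimmer probe at 0.91. The call of Timp2 was lost in 5 fits that left out 1 mouse (HFoleic mouse 4 or 6, or Ref mouse 4, 5 or 6), where adjusted p was 0.0528 to 0.0674.

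Timp3, an inhibitor that binds to the matrix, fell. Timp3 (chromosome 10, 85812041 to 85812100) was at 14.91, 14.95, 14.71, 14.97, 14.81 and 14.44 in Ref mice 2 to 7 and at 14.54, 13.51, 13.83, 13.96, 14.22 and 14.27 in HFoleic mice 1, 4, 5, 6, 7 and 8. Only HFoleic mouse 1 and Ref mouse 7 overlapped, and the log2 fold change was −0.74 (SE 0.16, adjusted p = 0.00261). Of both other Timp3 probes, the dimmer one, at −0.33, was not called. Timp4 (chromosome 6, 115195840 to 115195899), known for its expression in heart and fat, was at 14.38, 14.64 and 15.05 in Ref and 13.17, 13.88 and 14.58 in HFoleic. The ranges overlapped, the log2 fold change was −0.74 (SE 0.24, adjusted p = 0.0231), and its 3 probes were all called lower. Without HFoleic mouse 4 the Timp4 value was −0.59 (adjusted p = 0.0665).

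**Figure D3:**
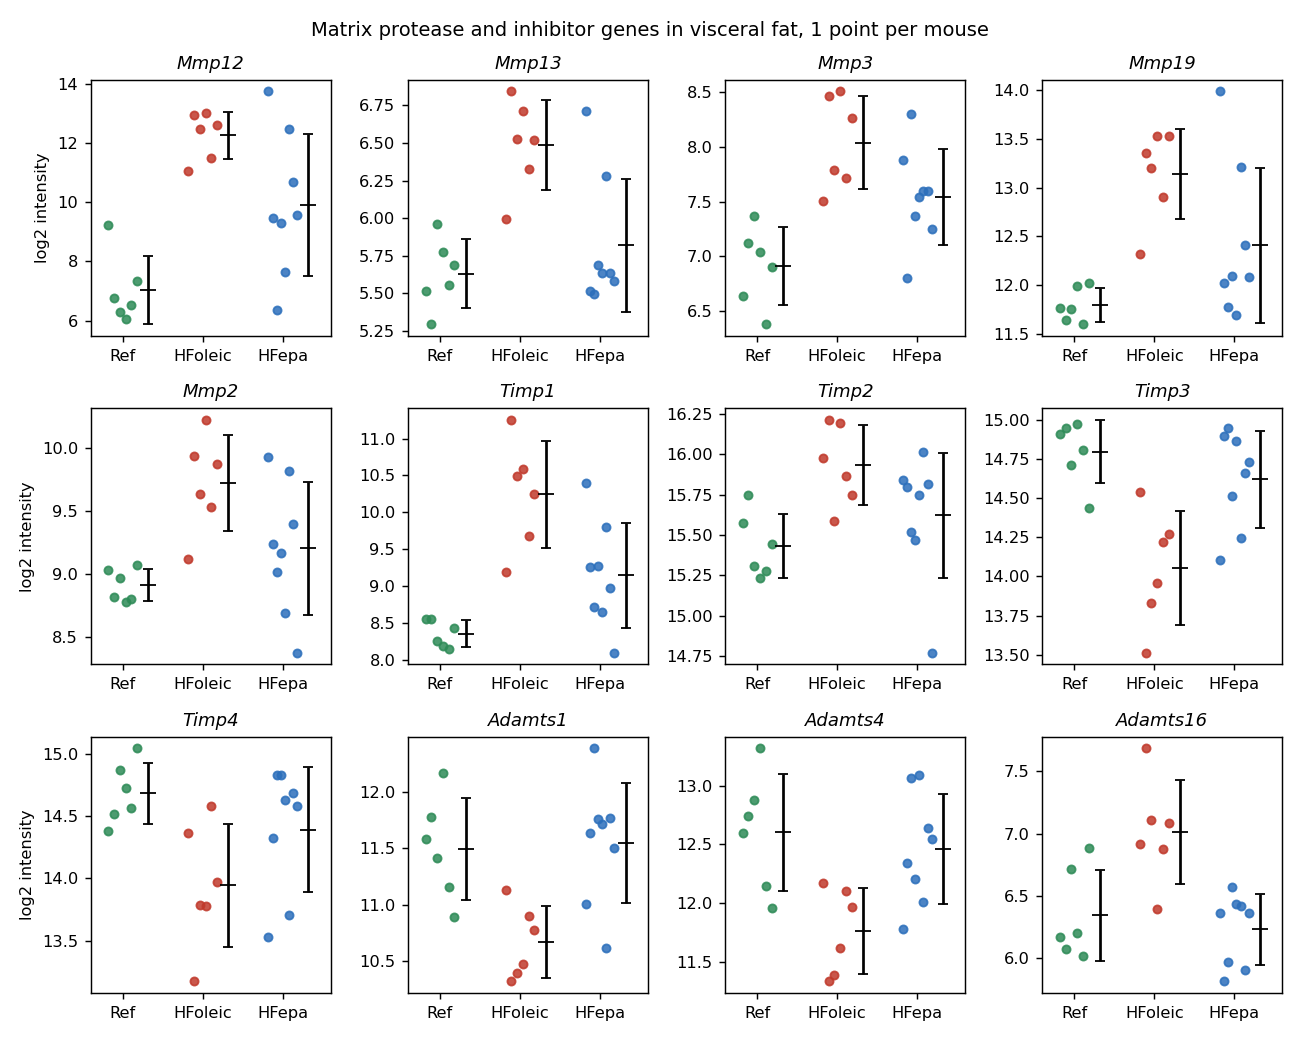
Log2 intensity (y axis, with its own range in each panel) of 12 genes in each Ref (green), HFoleic (red) and HFepa (blue) mouse, with the mean and SD of the group in black. HFoleic points lie above all Ref points for Mmp12, Mmp13, Mmp3, Mmp19, Mmp2 and Timp1, and in HFepa the Mmp12 points run from 6.35 to 13.76.

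The kept Adamts genes include 7 that encode enzymes that cleave proteoglycans of the versican and aggrecan family. Of these 7 genes, 2 fell and 0 rose in HFoleic vs. Ref, where 16.7% of all genes fell and 15.2% rose. Adamts4 (chromosome 1, 173190709 to 173190768) was at 11.95, 12.67 and 13.32 in Ref and at 11.33, 11.79 and 12.17 in HFoleic. Its log2 fold change was −0.84 (SE 0.24, adjusted p = 0.013), and 2 of its 3 probes were called. Adamts1 (chromosome 16, 85795044 to 85795103) was at 10.89, 11.495 and 12.16 in Ref and at 10.32, 10.63 and 11.13 in HFoleic. Its log2 fold change was −0.83 (SE 0.25, adjusted p = 0.0148), and both genes overlapped between the groups. Adamts5 and Adamts15 were at 0.45 and 0.43 (adjusted p = 0.114 and 0.0634). Of 3 measured genes of the proteoglycans that these enzymes cleave, 1 was called, where 31.8% of all genes were. It was Ncan at 2.89 (adjusted p = 0.000886), while Vcan was at 0.29 (adjusted p = 0.151).

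Among the other Adamts genes, Adamts16 and Adamts7 rose. Adamts7, which cleaves the cartilage protein COMP, was at 7.26, 7.54 and 7.85 in Ref and at 7.86, 8.04 and 8.31 in HFoleic, with a log2 fold change of 0.50 (adjusted p = 0.00589). Adamts16 was at 6.02, 6.18 and 6.89 in Ref and at 6.39, 7.002 and 7.69 in HFoleic, with a log2 fold change of 0.67 (adjusted p = 0.0124). For 4 genes the brightest probe was not called while dimmer ones were. Adamts2, a procollagen N-proteinase, was at 0.26 (adjusted p = 0.0629), with dimmer probes at 0.52 and 0.28. Adamts9 was at −0.40 (adjusted p = 0.0624), with dimmer called probes at −0.67 and −0.50. Adamts12 and Adamts18 each had 1 dimmer probe called, at −0.39 and 0.31.

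In HFepa vs. Ref, 0 of the 37 genes were called, against 2.46% of all genes. At an unadjusted p below 0.05 there were 9 (24.3%, against 21.5% of all genes), with 8 higher and 1 lower. Mmp12 was at a log2 fold change of 2.88 (95% confidence interval 1.08 to 4.67, adjusted p = 0.0745), the mean being 9.91 ± 2.41 (SD, n = 8) in HFepa. Mmp3 was at 0.64 (0.20 to 1.07, adjusted p = 0.0989), Adamts7 at 0.38 (0.13 to 0.62, adjusted p = 0.0892) and Timp1 at 0.79 (0.15 to 1.43, adjusted p = 0.153). The intervals of Timp3 (−0.50 to 0.14) and Timp4 (−0.76 to 0.17) include 0. The 1 lower gene was Adamts20, a dim probe that was not well above background in any HFepa mouse and was so in 5 of 6 Ref mice. Its mean in Ref was at least 1.21-fold higher, counted against the lowest signal of probes well above background (measured means 5.73 and 5.38). This bound leaves out the spread between mice. The log2 fold change was −0.34 (95% confidence interval −0.66 to −0.03, adjusted p = 0.203). The groups did not overlap for 0 of the 37 genes, against 1.04% of all genes. The count of 0 held in 32 of 35 alternatives in which called genes were counted. Without Ref mouse 7, Adamts7 and Mmp15 were called, and without HFepa mouse 3, Mmp12 was called, as it was with array weights. The share of all genes called in those fits is not given here.

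In HFepa vs. HFoleic, again 0 of the 37 genes were called, and 0% of all genes. At an unadjusted p below 0.05 there were 12 (32.4%, against 20.8% of all genes). Of these, 9 were lower in HFepa (Mmp12, Mmp13, Mmp19, Mmp2, Mmp27, Mmp3, Timp1, Adamts15 and Adamts16) and 3 were higher (Timp3, Adamts1 and Adamts4). Except for Mmp27 and Adamts15, these genes are among the 14 called in HFoleic vs. Ref, a comparison that shares the HFoleic mice. Mmp12 was at −2.36 (95% confidence interval −4.16 to −0.56, adjusted p = 0.148), Timp1 at −1.10 (−1.74 to −0.45, adjusted p = 0.119) and Mmp13 at −0.67 (−1.04 to −0.30, adjusted p = 0.117). Timp3 was at 0.56 (0.24 to 0.88, adjusted p = 0.118), Adamts1 at 0.88 (0.40 to 1.36, adjusted p = 0.117) and Adamts4 at 0.70 (0.22 to 1.17, adjusted p = 0.131). For Adamts16 the value was −0.78 (−1.16 to −0.41, adjusted p = 0.117). The groups did not overlap for 0 of the 37 genes, against 0.355% of all genes.

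The arrays lay on 3 slides that each held all groups. With the slide as a block, 5 of the 37 genes were called in HFepa vs. HFoleic, against 3.16% of all genes. They were Timp1 at −1.19 (adjusted p = 0.0446), Mmp13 at −0.70 (adjusted p = 0.0484), Adamts16 at −0.84 (adjusted p = 0.0307), Timp3 at 0.61 (adjusted p = 0.0417) and Adamts1 at 0.93 (adjusted p = 0.0442). Within slides 1, 2 and 3, HFepa minus HFoleic was −0.97, −1.81 and −1.24 for Timp1, 0.31, 1.04 and 0.78 for Timp3, and −1.90, −2.53 and −3.47 for Mmp12, with 1 HFoleic mouse only on slide 2. For Mmp3 the difference was −0.53, −1.21 and 0.20, so that slide 3 went the other way. HFoleic minus Ref within the slides was 4.23, 6.26 and 5.59 for Mmp12, 1.46, 2.94 and 1.88 for Timp1, and −0.67, −1.19 and −0.73 for Timp3. In HFoleic vs. Ref with the slide as a block, 16 of the 37 genes were called, against 33.1% of all genes.

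HFepa mice were not alike. For each HFepa mouse, the 14 genes called in HFoleic vs. Ref were sorted by whether its level was nearer to the HFoleic or to the Ref mean, as a description. In HFepa mice 1 and 6, 13 of the 14 genes were nearer to the HFoleic mean. In mice 4 and 8, 0 of the 14 were, and in mice 2, 3, 5 and 7 the number was 3, 2, 4 and 4. Mice 1 and 6 were the highest HFepa mice for Timp1 (10.39 and 9.80), Mmp13 (6.71 and 6.28) and Mmp19 (13.99 and 13.22), and the lowest for Timp3 (14.10 and 14.24). Without HFepa mouse 1, 8 genes were called in HFepa vs. HFoleic (Mmp12, Mmp13, Mmp19, Timp1, Timp3, Adamts1, Adamts4 and Adamts16). Without HFoleic mouse 1, the lowest of its group for Mmp12 and Timp1, 5 were called, namely Mmp13, Timp1, Timp3, Adamts1 and Adamts16. How many of all genes were called without these mice is not given here, so these counts cannot be set against that share.

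**Figure D4:**
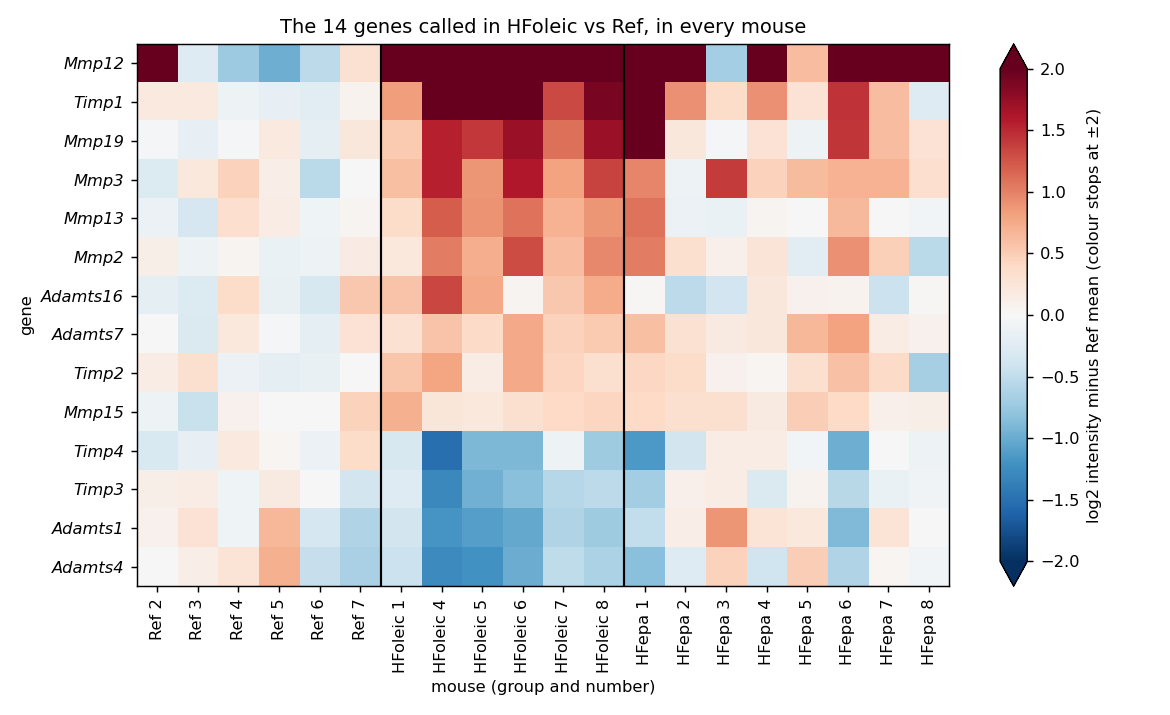
Log2 intensity minus the Ref mean of the 14 genes called in HFoleic vs. Ref (rows, from the largest rise to the largest fall) in each mouse (columns), with red above and blue below the Ref mean and the colour stopping at ±2. HFepa mice 1 and 6 resemble the HFoleic columns, with 13 of 14 genes nearer to the HFoleic mean, while HFepa mice 4 and 8 have 0 of 14.

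Most macrophage markers were also higher in HFoleic than in Ref mice. In HFoleic vs. Ref, 7 of 10 macrophage markers were higher and 1, Cd163, was lower, and 7 of 8 markers of lipid-associated macrophages were higher. Of all genes, 15.2% were higher and 16.7% lower in that comparison, which is the background of each marker count given here. The median log2 fold change was 1.07 over the macrophage list and 2.84 over the lipid-associated macrophage list, against −0.04 over all genes. The mean log2 intensity of the lipid-associated macrophage list was 10.5 to 11.2 in Ref, 12.7 to 14.2 in HFoleic and 10.9 to 14.5 in HFepa. HFepa mice 1 and 6 had the highest values of their group, 14.5 and 13.8, and the other HFepa mice were at 12.3 or less. The macrophage list was at 11.1 to 11.6 in Ref, 11.9 to 12.8 in HFoleic and 10.99 to 12.8 in HFepa. Of 10 fibroblast and progenitor markers 4 were higher in HFoleic (list 12.9 to 13.3 in Ref and 13.3 to 13.9 in HFoleic), and of 7 adipocyte markers 3 were lower (17.0 to 17.3 and 16.4 to 17.1). Of 6 neutrophil markers 1, S100a8, was higher. The part of these cell types in the protease and inhibitor values was not tested. The paper estimated cell type proportions from its expression data with CIBERSORT and reported no difference in the main types.

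Other proteolytic systems were read from 8 lists written by hand, the AP-1 and proteoglycan lists included. In HFoleic vs. Ref 27 of their 63 genes were called, where 31.8% of all genes were, 15.2% higher and 16.7% lower. Of 14 cathepsins, the proteases of the lysosome, 7 were higher in HFoleic vs. Ref (Ctsl, Ctsz, Ctsd, Ctss, Ctsh, Ctsk and Ctsb) and 1 lower (Ctso), with Ctss at 3.03 and Ctsk at 2.67 and a median of 0.44 over the list. Ctsk is also a member of the lipid-associated macrophage list. Of 10 ADAM genes, several of which encode sheddases that release membrane proteins, 5 were higher (Adam8, Adam9, Adam10, Adam17 and Adam19). Adam8 was at 3.79 and Adam17, the protease that releases TNF, at 0.61. Of 4 cystatins, the cathepsin inhibitors, Cstb and Cst3 were higher (1.19 and 0.26). Among genes of plasminogen activation, the urokinase receptor Plaur was higher at 0.61 (adjusted p = 0.0474), and Serpine2, which encodes an inhibitor of plasminogen activators, was lower at −0.37 (adjusted p = 0.0254). Of 12 activators and regulators of matrix proteases, 4 were higher and 2 lower. The higher ones were Bmp1 at 0.49 and Tll1 at 0.63, which are procollagen C-proteinases, and their enhancers Pcolce at 0.72 and Pcolce2 at 1.75. The lower ones were the proprotein convertase Pcsk5 at −1.10 and the proteoglycan Spock1 at −0.38. Of 5 ADAMTS-like genes, 1 was higher, Adamtsl2 at 0.55. In HFepa vs. Ref, Ctso was the 1 gene of these lists that was called (lower), and in HFepa vs. HFoleic limma called 0 of their 63 genes, with an unadjusted p below 0.05 for 21 of them, where 20.8% of all genes had one. Of these 21 genes, 15 were lower in HFepa, 7 of them cathepsins, and 6 were higher.

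Mmp7, the matrilysin of epithelia, did not follow the groups. Its log2 intensity was 12.79 in Ref mouse 3, 13.02 in Ref mouse 6, 12.83 in HFoleic mouse 5, 12.50 in HFepa mouse 4 and 10.33 in HFepa mouse 7, and at most 5.51 in the other 15 mice. High mice were found in all groups, and no comparison called Mmp7 (HFoleic vs. Ref −1.29, 95% confidence interval −5.01 to 2.43). Epididymal fat lies against the epididymis and testis, so transcripts of both were set beside it. Of lists written by hand, 2 of 8 epididymis and 4 of 5 testis transcripts were tested. The filter asked for 6 or more arrays well above background, so transcripts raised on fewer arrays only could be missing. Prm1, a sperm protamine, was at 9.65, 10.02, 10.88 and 9.67 in Ref mice 3 and 6, HFoleic mouse 5 and HFepa mouse 4, and at 6.75 or less in all other mice, including HFepa mouse 7 at 5.55. Adam7, an epididymis transcript, was at 10.59, 8.45 and 7.21 in Ref mice 3 and 6 and HFoleic mouse 5. It was also at 8.62 in HFepa mouse 2, whose Mmp7 was low, and at 5.16 in HFepa mouse 4. In HFepa mouse 7 Adam7 was at 6.05, and in all remaining mice at 5.75 or less. Among the other testis transcripts, Prm2 was at 9.69, 9.59, 11.02 and 9.17 in the mice with high Prm1, in the same order. Tnp1 was at 7.34, 7.74, 8.02 and 7.42 there, but also at 7.17 in HFoleic mouse 1, whose Mmp7 was low. Tnp2 stayed at 5.90 to 6.39 in all mice. Rnase10, another epididymis transcript, was at 9.57 to 10.85 in all mice, with 9.95, 9.70 and 9.76 in Ref mice 3 and 6 and HFoleic mouse 5. The part of neighbouring tissue in the Mmp7 values was not tested. Without the 5 arrays on which Prm1 or Adam7 was above 8, a choice made after seeing the data, 8 genes were called in HFoleic vs. Ref. How many of all genes were called in that smaller fit is not given here, so the 8 cannot be set against that share. Of the 14 genes, 7 remained (Mmp12, Mmp13, Mmp19, Mmp3, Timp1, Timp2 and Timp3), Adamts12 joined them, and the calls of Mmp2, Mmp15, Timp4, Adamts1, Adamts4, Adamts7 and Adamts16 were lost in that smaller fit with directions kept. Their log2 fold changes there were 0.78 for Mmp2 (0.81 with all arrays), −0.78 for Timp4 (−0.74), −0.85 for Adamts4 (−0.84) and −0.79 for Adamts1 (−0.83). They were 0.31 for Mmp15 (0.39), 0.41 for Adamts7 (0.50) and 0.50 for Adamts16 (0.67).

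**Figure D5:**
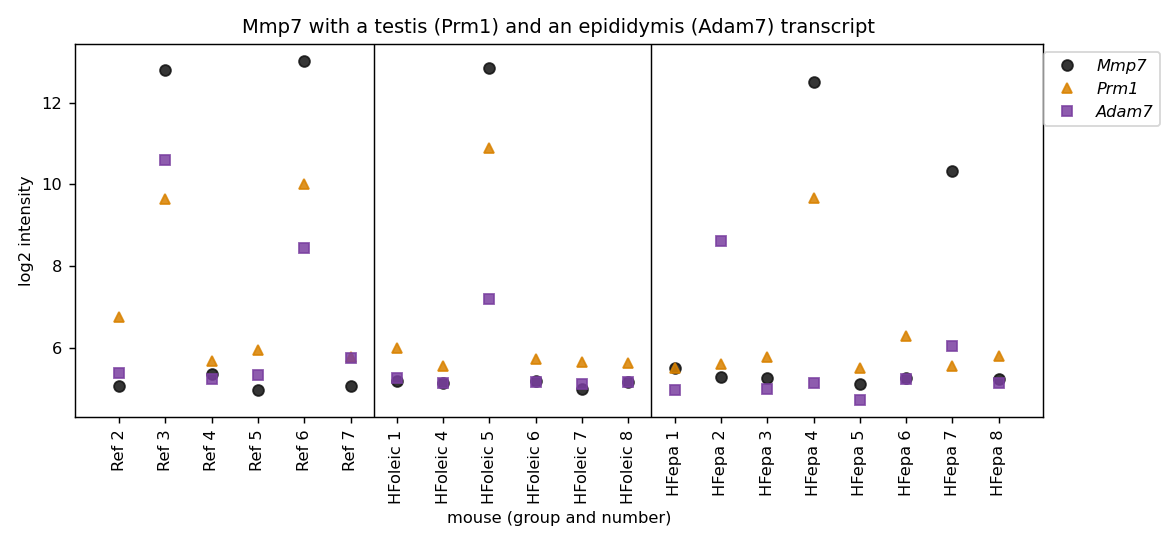
Log2 intensity (y axis) of Mmp7 (black), the testis transcript Prm1 (orange) and the epididymis transcript Adam7 (violet) in each of the 20 mice (x axis). Mmp7 is above 10 in 5 mice spread over the 3 groups, of which 4 also have Prm1 above 9, and HFepa mouse 7 has not.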

How the data were processed

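Total RNA of epididymal fat of 20 mice was labelled with Cy3 and hybridized to 1-colour Agilent mouse arrays. Per the file headers, the authors extracted spot intensities with Agilent Feature Extraction 10.10.1.1, and the deposited median intensity is linear, not background-subtracted and not normalized. The processed intensity deposited beside it had been background-subtracted and detrended by that software. A table of log2 values deposited with the arrays was made by the authors by a filter and quantile normalization. It holds 38168 probes, of which 38132 were tested here, and served as an alternative. Its values correlated with the values used here at r = 0.99998 or more on each array.

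The analysis used limma 3.58.1 under R 4.3.3. Control spots were left out, and spots marked as non-uniform or population outliers were set to missing. Probes well above background on 6 or more arrays were kept (39391 probes). The log2 of the median intensity was quantile normalized, and repeated spots of a probe were averaged, after which 25 probe values were missing. lmFit with 1 mean per group was fitted to all 20 arrays, followed by eBayes. The p-values measure the spread between mice, whose number limits the precision. The gene names and the mm9 positions are those of the files, and the place of a probe in exons was not analysed here. Promoter windows came from RefSeq (GRCm38.p6) and were read with Python 3.11.15 and pandas 2.3.3, and the figures with matplotlib 3.10.9. The steps were tested on simulated data. Protein sequences were not used here, so the search for protein motifs that had been planned was not run. The value of 1 gene of the plasminogen list is not reported here.

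The genes, the lists and the tests were chosen with earlier results of these data known. Full values are given for the 5 largest rises and 5 largest falls called in HFoleic vs. Ref (4 fell), for genes called in the other comparisons (none), for all Timp genes and for Mmp13. Mmp7, Mmp2, Mmp15, Adamts7, Adamts16 and Adamts20 were added after their values were seen. The alternatives were other signals, background correction, scaling, filters, slide or replicate blocks, array weights, trend, fits to 2 groups, other probe rules and each array left out.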

Additional observations from a re-analysis of the deposited data

Results flagged for a closer look

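In 8 of 111 sets of values, each 1 gene in 1 group, a single mouse stood far from the others by Dixon's test at the 95% level, which chance alone would flag in about 1 of 20 sets. Mmp7 in HFoleic mouse 5 was at a log2 intensity of 12.83, the other HFoleic mice being at 5.20 or less. Timp2 in HFepa mouse 8 was lowest at 14.77, with the next mouse at 15.47, and Mmp23 was lowest in the same mouse, at 8.85 with the next at 9.53. Adamts9 in Ref mouse 5 was highest at 12.48 (next 11.88). Adamts14 in HFoleic mouse 7 was lowest at 9.56 (next 9.92), and Adamts5 in HFoleic mouse 5 was lowest at 8.91 (next 9.41). Among dim probes, Adamts20 in HFoleic mouse 1 was highest at 6.30 (next 5.48), and Mmp24 in HFepa mouse 7 was lowest at 5.47 (next 5.68). No explanation of these values was tested.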

How the results depend on the processing

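Mmp12, Mmp13, Mmp3, Timp1 and Timp3 kept their direction and their call in HFoleic vs. Ref in all 34 alternatives, at adjusted p of at most 0.0437, and none of the 14 called genes changed direction there. The number called, 14, was 11 with the replicate number as a block and 21 with array weights, 13 to 17 with 1 array left out, and 8 without the 5 arrays with Prm1 or Adam7 above 8. Deviations from the group mean correlated at −0.59 to 0.56 over 16 pairs of mice with the same replicate number (median −0.08). Over 116 pairs with different numbers the correlation was −0.48 to 0.80 (median 0.0056). These ranges overlap and cannot settle whether the numbers pair mice. Under that replicate block Mmp15, Mmp19, Timp4, Adamts1 and Adamts4 missed the threshold. In HFepa vs. HFoleic the number, 0, became 5 with slide as a block, 11 when arrays were weighted, and 0 to 8 with 1 array left out. In HFepa vs. Ref it became 1 with array weights (Mmp12) and 0 to 2 with 1 array left out. Adamts1 in HFepa vs. Ref, at 0.05, lay between −0.0694 and 0.186 with 1 array left out and at −0.0136 without the 5 arrays, so that it has no direction. Among these alternatives the share of all genes called is given for the slide block only, so the other counts cannot be set against it. The cause of these shifts was not tested. Of the kept genes, 7 were not well above background on every array, which limits the precision of Mmp13 among the called ones.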
